A study of Mus musculus with 5 samples.

Results

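Dermal white adipocyte genes were examined in whole dorsal skin of mice with mutant or wild-type *Clock*. The set had 10 members, *Adipoq*, *Plin1*, *Plin2*, *Plin4*, *Fabp4*, *Cidec*, *Lep*, *Retn*, *Cebpa* and *Cd36*. Every probe set that the platform annotation maps to a single member was taken, which gave 14 of the 45037 non-control probe sets on the array and 9 of its 18193 named genes. *Plin1*, which encodes the main coat protein of the adipocyte lipid droplet, had no such probe set and was not analysed here. RNA was extracted at postnatal day 23 (P23) from 2 animals with mutant *Clock* and from 3 wild-type animals of their litters, with 1 Affymetrix whole-genome mouse array for each. All 5 mice were in telogen, the resting phase of hair growth, by histology. In its wild-type time course, however, the study classes P23 as early anagen, the start of the growth phase. It also shows wild-type mice at P23 in anagen I. Per the study's methods the *Clock* mice were on a C57BL/6J background. The mutant allele reduces the transcriptional activity of CLOCK and is carried by every cell of the animal, so that it was not limited to fat. The animals were female except *Clock* mutant replicate 1. The labels give no time of day for these arrays. Values are MAS5 intensities, which are array brightness on a linear scale, and differences are log2, *Clock* mutant minus wild type.

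White adipocytes of the dermis lie beneath the hair follicles, store triglyceride in a single large droplet and release hormones. Their layer thickens while hair grows and thins while hair rests. PPARG and C/EBP transcription factors build the adipocyte program, and the molecular clock is known to drive daily rhythms of lipid storage and release in fat. Adipocyte RNA was present in these samples, where the *Adipoq* probe set had intensities of 11275 to 13656 on the 5 arrays, against a brightness filter of 56.7. *Ucp1*, the uncoupling protein that defines brown adipocytes, was below that filter on every array, at 0.899 to 11.7. Several members are also active outside fat, *Fabp4* and *Cd36* in capillary endothelium and macrophages, *Cebpa* in epidermis and *Plin2* in sebaceous glands. Skin was measured in bulk, so fewer adipocytes and less of these RNAs per adipocyte cannot be told apart.

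No member passed the test. In limma with Benjamini-Hochberg adjustment over all 27022 probe sets tested, 0 of the 14 member probe sets had an adjusted p under 0.05, where 0.0888% of all probe sets did. At an unadjusted p under 0.05 there were 6 of 14, in *Fabp4*, *Cidec* and *Cd36*, against 10.8% of all probe sets, and all 6 had lower values in the mutants. In the same 6 probe sets both mutant arrays lay below all 3 wild-type arrays, which held for 15.1% of all probe sets. In 0 of the 14 did both mutant arrays lie above the wild-type arrays, against 12.8% of all probe sets. The 6 probe sets came from 3 genes, and probe sets of a gene read the same RNA. All 14 were bright enough to be tested.

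Counted once per gene at its brightest probe set, 8 of the 9 genes had a negative difference. The median difference was -0.06, with a range from -0.36 for *Cidec* to 0.12 for *Lep*. Over all genes tested the median was 0.02, and 46.4% of them were negative. When each array was centred on its median, 4 of the 9 genes were negative and their median was 0.03. That setting moved the median of all probe sets tested from -0.02 to 0.07. It raises every difference, so every count of signs with median centring, here and below, moves with it. No median over all genes was taken in that setting. Without it, the median over all genes, 0.02, was above that over all probe sets, -0.02. The 2 mutant mice were not alike in these genes. In *Clock* mutant replicate 2 all 9 genes were below their wild-type mean, with a median deviation of -0.28. On that array the macrophage markers were also low, with a median of -0.26 against -0.02 to 0.05 in the wild types, and their part in the members' values was not tested. In *Clock* mutant replicate 1, the male, 5 were below and 4 above, with a median of -0.05. Among the wild-type arrays the medians were -0.07, -0.00 and 0.10. Replicate 2 alone lay outside the wild-type range.

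**Figure D1:**
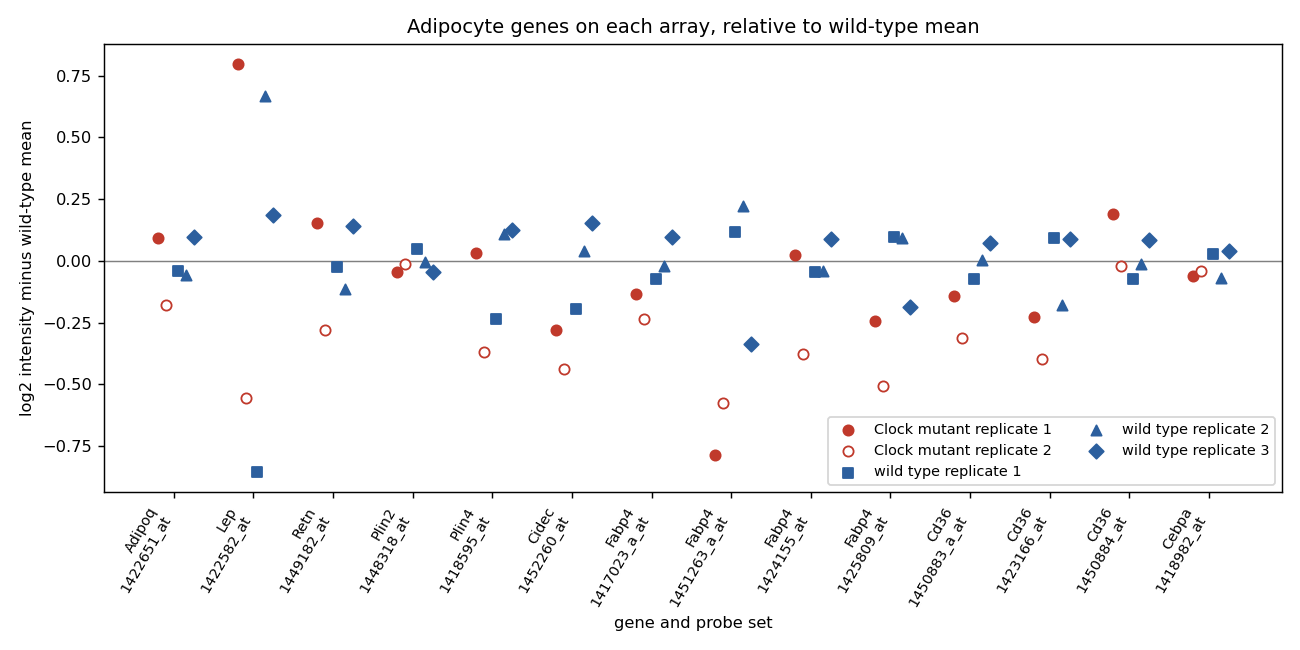
Log2 intensity of each member probe set on each array, minus the mean of the 3 wild-type arrays. Filled and open red circles are *Clock* mutant replicates 1 and 2, and blue symbols are the wild-type arrays. The open circles lie below 0 at every probe set, while the filled circles are on both sides of it.

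The plot of deviations by array shows that the signs of several members rested on a single mutant mouse. Without *Clock* mutant replicate 1, which leaves only females, all 9 genes were negative, with a median of -0.28. Without *Clock* mutant replicate 2, 5 of 9 genes were negative, with a median of -0.05. The median over all probe sets tested was -0.0014 and -0.0279 in these fits, each of which has only 1 mutant array. No member had an adjusted p under 0.05 in limma with either mouse left out. Sex and the difference between the mutant mice cannot be told apart, since replicate 1 was the only male.

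The secreted members come first. *Adipoq* encodes adiponectin, a hormone that raises insulin sensitivity. Listed in order of replicate, here and below, it read 13608 and 11275 in the mutants and 12412, 12273 and 13656 in the wild types. Replicate 2 was the lowest array, while replicate 1 fell just under the highest wild type. The difference was -0.04 (SE 0.091, 95% interval -0.25 to 0.16, adjusted p = 0.893 in limma), and it was positive, at 0.04, with median centring. On the linear scale that interval spans a change of -15.9% to 11.9%.

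*Retn* encodes resistin, a hormone of mouse fat that opposes insulin action. Its intensities were 6731 and 4988 in the mutants and 5946, 5588 and 6667 in the wild types. The mutants held the highest and the lowest value. The difference was -0.06 (SE 0.127, 95% interval -0.35 to 0.22, adjusted p = 0.890), turning to 0.03 with median centring and to 0.15 without *Clock* mutant replicate 2.

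*Lep* encodes leptin, which reports fat stores to the brain. It was dim, at 142 and 55.9 in the mutants and 45.4, 130.4 and 93.5 in the wild types. The groups overlapped, and mice of the same genotype differed more than the group means did. The difference was 0.12 (SE 0.497, 95% interval -1.0 to 1.25, adjusted p = 0.948), an interval that holds a change of 1 on the log2 scale in either direction. It was 0.80 without *Clock* mutant replicate 2 and -0.55 without replicate 1.

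The next members coat or fuse lipid droplets. *Plin2* encodes perilipin 2, a droplet coat found in most cells that store lipid. Its intensities were 7860.4 and 8037 in the mutants and 8388, 8094 and 7871 in the wild types. On the log2 scale these spanned the narrowest range of any member. The difference was -0.03 (SE 0.067, 95% interval -0.18 to 0.12, adjusted p = 0.899), or 0.06 with median centring. *Plin4* encodes a coat protein of small droplets in white fat. It had intensities of 5408 and 4102 in the mutants and 4499, 5707 and 5773 in the wild types. Replicate 2 was the lowest of the 5 arrays and replicate 1 fell within the wild-type range. The difference was -0.17 (SE 0.140, 95% interval -0.48 to 0.15, adjusted p = 0.687), and 0.03 without *Clock* mutant replicate 2.

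*Cidec* encodes a protein that joins small droplets into the single large one of white adipocytes. Its intensities were 3056 and 2745 in the mutants and 3249, 3825 and 4129.5 in the wild types. Both mutants were below every wild-type array. The group means were 2901 ± 220 (SD, n = 2) and 3735 ± 447 (SD, n = 3). The difference was -0.36 (SE 0.110, 95% interval -0.61 to -0.11), a ratio of 0.779, with an unadjusted p of 0.00947 and an adjusted p of 0.339 in limma. It lay between -0.46 and -0.28 with any array left out and was -0.27 with median centring.

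The *Cidec* promoter is shown because this gene had the lowest difference of the members at their brightest probe sets, and the *Lep* promoter because it was the only member window with a C/EBP palindrome. Each is the 250 bases upstream of a RefSeq start site in GRCm38.p6, written in the direction of the gene. *Cidec* is at chr6:113435761-113436010 on the minus strand and *Lep* at chr6:29059971-29060220 on the plus strand. Capitals mark the C/EBP palindrome TTGCGCAA.
Cidec: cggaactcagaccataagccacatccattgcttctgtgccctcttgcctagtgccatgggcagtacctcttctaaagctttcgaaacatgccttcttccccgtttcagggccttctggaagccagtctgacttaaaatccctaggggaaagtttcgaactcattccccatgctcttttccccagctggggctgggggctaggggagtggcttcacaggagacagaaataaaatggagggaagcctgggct
Lep: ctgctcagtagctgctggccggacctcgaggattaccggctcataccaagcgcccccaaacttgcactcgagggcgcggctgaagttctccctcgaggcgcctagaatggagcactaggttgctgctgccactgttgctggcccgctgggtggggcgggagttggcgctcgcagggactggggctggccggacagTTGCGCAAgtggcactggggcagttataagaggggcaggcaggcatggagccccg
The *Lep* match begins 55 bases upstream of the start site, and 0.164% of all 32851 promoter windows hold this motif.

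Windows were found for 9 of the 10 members, 10 windows in all, and that of *Fabp4* was not in the table used. On either strand, the E-box CACGTG that CLOCK and BMAL1 bind was in 6.02% of all windows, the E-prime box CACGTT in 3.85% and the D-box TTATGTAA in 0.819%. None of the member windows held these letters. The nuclear receptor core AGGTCA was in the windows of *Plin2* and *Cd36* and in 14.0% of all windows, and its tandem form AGGTCANAGGTCA, which contains that core and is read by PPARG with RXR, was in 0.0335% of all windows and in no member window. *Cebpa* had a TATA box (TATAAA) beginning 30 bases upstream, as 12.4% of all windows hold it. These are matches of letters in a short window and say nothing of binding.

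The fatty acid handlers held most of the low values. *Fabp4* encodes the fatty acid carrier of the adipocyte cytoplasm. It had 4 probe sets. At the brightest, 1417023_a_at, the intensities were 18432 and 17151 in the mutants and 19197, 19905 and 21589 in the wild types. The mutants were below all wild-type arrays. The difference was -0.18 (SE 0.072, 95% interval -0.35 to -0.02, unadjusted p = 0.0301, adjusted p = 0.416 in limma), a ratio of 0.880. It was -0.10 (unadjusted p = 0.323) with median centring.

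At 1451263_a_at the same gene read 2838 and 3279 in the mutants and 5310.0, 5699 and 3869.7 in the wild types. Again the groups did not overlap, although wild-type replicate 3 was nearer to the mutants than to the other wild types. The group means were 3058 ± 311 (SD, n = 2) and 4960 ± 964 (SD, n = 3). The difference was -0.68 (SE 0.152, 95% interval -1.03 to -0.34), a ratio of 0.623, with an unadjusted p of 0.00152 and an adjusted p of 0.209. It was between -0.85 and -0.57 with any array left out, with a smallest adjusted p of 0.0734. This was the lowest difference of any member probe set.

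At 1425809_at the intensities were 539.55 and 449 in the mutants and 682, 682 and 560.5 in the wild types. The difference there was -0.38 (SE 0.140, 95% interval -0.69 to -0.06, adjusted p = 0.397), without overlap, and -0.24 (unadjusted p = 0.167) without *Clock* mutant replicate 2. At 1424155_at they were 3144 and 2386 in the mutants and 3000.3, 3006 and 3294 in the wild types. In this probe set replicate 1 lay inside the wild-type range, and the difference was -0.18 (SE 0.117, 95% interval -0.44 to 0.09, adjusted p = 0.605). All 4 probe sets were negative, with sizes that ranged from -0.68 to -0.18, and 1424155_at was 0.02 without *Clock* mutant replicate 2. The mean of the 4 gave -0.35.

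*Cd36* encodes a membrane protein that takes up long-chain fatty acids. It had 3 probe sets. At 1450883_a_at, the brightest, the intensities were 5676 and 5043 in the mutants and 5959, 6269.5 and 6576 in the wild types. Both mutants were the lowest arrays. The difference was -0.23 (SE 0.081, 95% interval -0.41 to -0.04, unadjusted p = 0.0209, adjusted p = 0.383), a ratio of 0.854. It was -0.14 without *Clock* mutant replicate 2 and -0.14 with median centring, with unadjusted p-values of 0.163 and 0.206.

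At 1423166_at *Cd36* had 4344 and 3861 in the mutants and 5423, 4484 and 5399 in the wild types. The groups were again apart, with a difference of -0.31 (SE 0.102, 95% interval -0.54 to -0.08, unadjusted p = 0.0139, adjusted p = 0.368), and -0.23 (unadjusted p = 0.104) without *Clock* mutant replicate 2. The third probe set, 1450884_at, did not follow, at 798 and 689 in the mutants and 664, 693 and 741 in the wild types. Its difference was 0.09 (SE 0.116, 95% interval -0.18 to 0.35, adjusted p = 0.817), and -0.02 without *Clock* mutant replicate 1.

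Cells other than adipocytes also make *Fabp4* and *Cd36*. Of 8 capillary endothelium markers measured, 3 were negative and 5 positive, and their summed intensity was 6840 to 7348 in the mutants and 6533 to 7004 in the wild types. *Tek*, the endothelial angiopoietin receptor, was 0.41 (SE 0.102, adjusted p = 0.254 in limma) with both mutants above all wild types. *Pecam1* (0.20, adjusted p = 0.538) and *Esam* (0.12, adjusted p = 0.677) also had both mutants above, and *Emcn* (-0.10, adjusted p = 0.768) both below. Of 8 macrophage markers, 4 were negative and 4 positive, with summed intensities of 13480 to 15910 and 14030 to 15270. They differed between the mutant mice, with a median of 0.15 in replicate 1 and -0.26 in replicate 2, where all 8 were below their wild-type mean. *Cd14*, a receptor of macrophages, was -0.35 (SE 0.135, adjusted p = 0.416) with both mutants below all wild types. *Cd163* (-0.22, adjusted p = 0.493) and *Itgam* (-0.27, adjusted p = 0.619) also had both mutants below. Without *Clock* mutant replicate 2, *Cd163* was -0.05. None of these markers passed the test, and their part in the values of *Fabp4* and *Cd36* was not tested.

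*Cebpa* encodes C/EBP alpha, a factor that maintains the adipocyte program. Its intensities were 7592 and 7709 in the mutants and 8085, 7552 and 8154 in the wild types. The mutants lay within the wild-type range. The difference was -0.05 (SE 0.069, 95% interval -0.21 to 0.10, adjusted p = 0.818), or 0.04 with median centring.

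**Figure D2:**
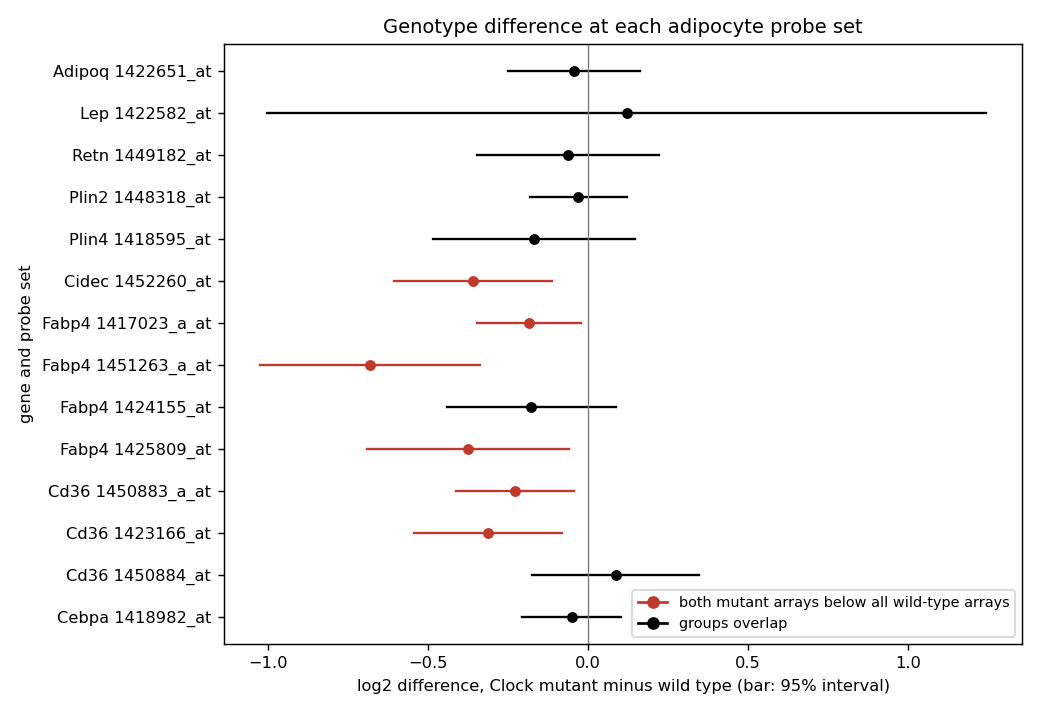
Log2 difference in intensity, *Clock* mutant minus wild type, for each member probe set, with the 95% interval from limma as a bar. Red marks the 6 probe sets in which both mutant arrays were below all wild-type arrays, from -0.68 to -0.18, and black those whose groups overlapped. With median centring *Adipoq*, *Retn*, *Plin2* and *Cebpa* move to the other side of 0.

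The plot of differences shows intervals of unlike width, narrowest for *Plin2* and widest for *Lep*.

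Other genes of the adipocyte were taken from 6 lists, with 71 genes, of which 64 were measured. As skin was measured in bulk, the values of these lists are not of adipocytes alone. Of these, 0 rose and 0 fell at an adjusted p under 0.05 in limma. At an unadjusted p under 0.05, 4 were higher and 7 were lower, beside 10.8% of all probe sets in either direction. Their median difference was -0.06, beside 0.02 over all genes, and 42 of 64 were negative. That tally was 27 of 64 with median centring, where their median was 0.03 beside 0.07 over all probe sets. It was 31 of 64 without *Clock* mutant replicate 2.

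The list on lipolysis and fatty acid uptake, the release of fatty acids from triglyceride and their entry into the cell, had 12 of 13 genes measured. All 12 were negative, with a median of -0.08 and no gene at an unadjusted p under 0.05 in limma. With median centring 5 of 12 were negative, with a median of 0.01 beside 0.07 over all probe sets. Without *Clock* mutant replicate 2, 7 of 12 were negative. *Pnpla2*, the lipase that opens triglyceride breakdown, had -0.13 (SE 0.098, adjusted p = 0.644), and 0.01 at its other probe set. *Angptl4*, an inhibitor of lipoprotein lipase, had -0.19 (SE 0.099, adjusted p = 0.528), and *Aqp7*, a glycerol channel, had -0.25 (SE 0.215, adjusted p = 0.700), and 0.15 at its other probe set.

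Of 13 measured genes of lipid droplets and triglyceride synthesis, 5 were negative and 8 positive, with a median of 0.02. *Plin5*, the perilipin of oxidative tissues, had 528 and 464 in the mutants and 254, 339 and 369 in the wild types. Both mutants were above all wild types, opposite to *Cidec*, with a difference of 0.64 (SE 0.178, adjusted p = 0.301). Its other probe set was at 0.61. *Dgat1*, which catalyses the last step of triglyceride synthesis, had -0.19 (SE 0.089, adjusted p = 0.477), and -0.51 at its other probe set. *Agpat2*, an earlier step, had 0.26 (SE 0.178, adjusted p = 0.614). Without *Clock* mutant replicate 1, *Dgat1* was -0.11 at its brightest probe set and *Agpat2* -0.04.

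Of 11 measured adipokines and other adipocyte products, 8 were negative, with a median of -0.14, and the count was 5 of 11 without *Clock* mutant replicate 2 and 11 of 11 without replicate 1. *Rbp4*, a retinol carrier named after its value was seen, had -0.43 (SE 0.250, adjusted p = 0.562) over all arrays and -0.97 (adjusted p = 0.0477) without replicate 1, but 0.12 without replicate 2. *Nnat*, a small membrane protein of neurons and fat, had 402 and 575 in the mutants and 702, 1177 and 1198 in the wild types. The mutants were below all wild types, with a difference of -1.05 (SE 0.240, adjusted p = 0.220 in limma). *Thrsp*, a regulator of fatty acid synthesis, had -0.45 (SE 0.137, adjusted p = 0.334), but -0.19 without *Clock* mutant replicate 2. Its other probe set was at -0.60 over all arrays. *Car3*, an abundant carbonic anhydrase of fat and muscle, had -0.26 (SE 0.102, adjusted p = 0.417), with its 4 probe sets between -0.80 and 0.04, and -0.13 without *Clock* mutant replicate 2.

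Of 7 measured genes of insulin and glucose handling, 6 were negative, with a median of -0.10. With median centring 4 were negative, with a median of -0.01 beside 0.07 over all probe sets. *Slc2a4*, the insulin-regulated glucose transporter, had -0.32 (SE 0.143, adjusted p = 0.471), and -0.74 at its other probe set. *Pck1*, which makes glycerol backbones for triglyceride in fat, had -0.22 (SE 0.111, adjusted p = 0.514), and -0.57 at its other probe set. *Irs2*, an insulin receptor substrate, was dim, at -0.72 (SE 0.427, adjusted p = 0.568). The values at the brightest probe sets rested on single mutant mice. Without *Clock* mutant replicate 2, *Slc2a4* was -0.09 and *Pck1* -0.08, and without replicate 1 they were -0.54 and -0.36. *Irs2* was -0.03 without replicate 1 and -1.40 without replicate 2.

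**Figure D3:**
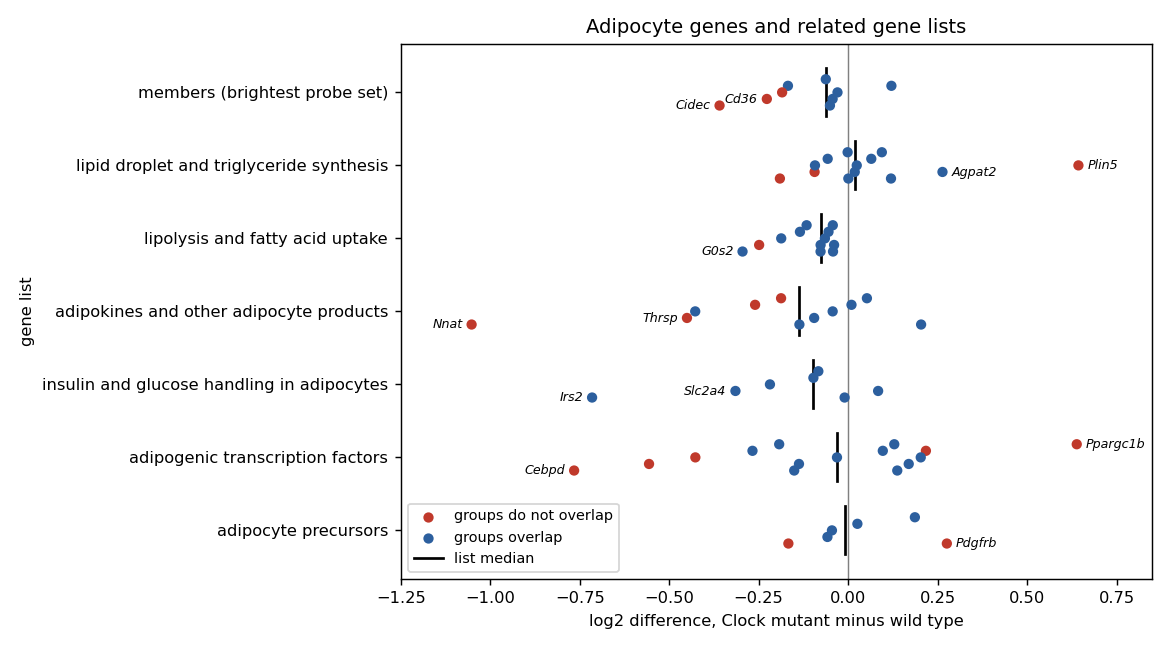
Log2 difference in intensity, *Clock* mutant minus wild type, for the 9 members and for the measured genes of 6 adipocyte lists, each gene at its brightest probe set. Points are genes, red where the mutant and wild-type arrays do not overlap, and black bars are list medians, which lie between -0.14 and 0.02 and would be higher with median centring.

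Transcription factors had the widest range in the plot of lists. Of 15 measured, 8 were negative and 7 positive, with a median of -0.03. *Ppargc1b*, a coactivator that raises mitochondrial gene expression, had 815 and 709 in the mutants and 492, 484 and 489 in the wild types. All 3 wild types were close together and below both mutants, with a difference of 0.64 (SE 0.116, unadjusted p = 0.000363, adjusted p = 0.126). *Cebpb*, which acts before *Cebpa* in adipocyte formation, had 3258 and 3349 in the mutants and 4120.1, 5536.5 and 5026 in the wild types, a difference of -0.56 (SE 0.117, adjusted p = 0.181). *Cebpd*, its partner at that step, had 2654 and 3681 in the mutants and 3684, 6335 and 6431 in the wild types, a difference of -0.77 (SE 0.232, adjusted p = 0.334). Both C/EBP genes were lower in the mutants without overlap, although the second mutant value of *Cebpd* lay next to the lowest wild type, whereas *Cebpa* overlapped. The other probe sets of *Cebpb* and *Cebpd* were at -0.58 and -0.62. *Pparg*, the central regulator of fat cells, had 0.14 (adjusted p = 0.761).

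Of 6 measured genes of adipocyte precursors, 3 were negative and 3 positive, with a median of -0.01. *Pdgfrb*, a receptor of vessel-associated precursors, had 0.28 (SE 0.089, adjusted p = 0.362), and 0.08 at its other probe set. *Cd34*, a surface protein of precursors and vessels, had -0.17 (SE 0.066, adjusted p = 0.420). *Dpp4*, a peptidase of early precursors, had 0.19 (SE 0.106, adjusted p = 0.552), with its 4 probe sets between 0.03 and 0.40.

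Markers of neighbouring cells gave the setting for these values, and 0 of them passed the test. Brown adipocyte markers, with 7 measured, had 3 negative and 4 positive differences and a median of 0.01. Their summed intensities were 13360 to 14940 in the mutants and 11600 to 13170 in the wild types. The lowest p-values there belonged to *Cox8b* (0.41, SE 0.148, adjusted p = 0.389) and *Cox7a1* (0.47, SE 0.172, adjusted p = 0.389), subunits of mitochondrial cytochrome oxidase that muscle also makes. *Clock* mutant replicate 1 was the highest array for both, and without it they were 0.22 and 0.16. Muscle of the panniculus carnosus, with 8 markers, had sums of 159600 to 169900 and 165300 to 180300, and a median difference of -0.06. Sebaceous gland, with 5 markers, had 37350 to 41710 and 40920 to 41330, and a median of -0.11. The sign for sebaceous gland rested on the male, since the median was 0.11 without *Clock* mutant replicate 1 and -0.27 without replicate 2. Epidermis, with 6 markers, had 87840 to 88700 and 80100 to 89600, with 3 negative and 3 positive and a median of 0.01. With median centring all 6 were positive, with a median of 0.10 beside 0.07 over all probe sets. The median over all genes, the closer comparison, was not taken in that setting. *Krt1*, a keratin of the upper epidermis, had 0.31 (SE 0.095, adjusted p = 0.340), and *Krt5*, of basal epidermis, had 0.16 (SE 0.081, adjusted p = 0.519), each with both mutants above all wild types. Their part in the members' values was not tested. Dermal fibroblasts, with 6 markers, had 117000 to 120400 and 118400 to 129100. *Krt14*, also of basal epidermis, had 0.04 (SE 0.078), and *Col1a1*, of dermal collagen, had -0.06 (SE 0.073).

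The members' mean profile, each gene centred on its own mean, was 0.09 and -0.22 in the mutants and -0.11, 0.11 and 0.14 in the wild types. In this mean *Clock* mutant replicate 1 lay with wild-type replicates 2 and 3, and replicate 2 with wild-type replicate 1. The mean is moved most by *Lep*, which varied most over the arrays. The members' median deviations from the wild-type mean did not group the arrays this way. Those were -0.05 and -0.28 in the mutants and -0.07, -0.00 and 0.10 in the wild types. *Plin4* was nearest to the mean profile, at a root mean square distance of 0.0572, and *Lep* farthest, at 0.541. Among 6359 other genes with at least the same range over the 5 arrays, the nearest were *Mob3a* (0.0133), *Diras2* (0.0166), *Ltc4s* (0.0243), *Setd7* (0.0286), *Irgm2* (0.0346) and *Klhdc4* (0.0395). This likeness rests on 5 arrays and on a mean profile moved most by *Lep*.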

How the data were processed

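Total RNA of dorsal skin was hybridized by the authors to 1 array per mouse. The deposited values are intensities made with MAS5 per the labels, and every array had a 2% trimmed mean of 500.0. The MAS5 version was not given in the sources used here. Array medians were 106 to 118. Precision is limited by how few arrays there are.

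Genes were named from the platform annotation, in which 34945 probe sets had 1 symbol, 932 several and 9160 none here. Of the named, 34741 matched the RefSeq gene table (GRCm38.p6) by identifier. Intensities under 1 (2441 values) were set to 1 before log2. Probe sets under the 40th percentile of mean log2 intensity (18015) were left out. The other 27022 were fitted with limma 3.58.1 in R 4.3.3 (lmFit, eBayes with an intensity trend, two-sided) and adjusted by Benjamini-Hochberg. The step was tested on simulated data. The study's methods state no test for these arrays. For counts of genes, the brightest tested probe set of each was used.

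All members were named, with *Krt14*, *Col1a1* and the 6 nearest profiles. From each of the 6 adipocyte lists came the 3 genes with the smallest unadjusted p in limma. The marker lists of other cell types had the same rule, but not all of those genes were named. *Pparg*, *Rbp4* and *Emcn* were added after their values were seen. Members and lists were chosen with earlier results of these data known. Biological replicates are as labelled. Alternatives were quantile normalization, median centring, other filters, log2 of the intensity plus 32, no trend, averaged probe sets per gene, a replicate block, and fits without each array in turn. The correlation of deviations between same-numbered arrays was 0.008 and 0.099, and the labels give the numbers no meaning. Promoter sequences are from RefSeq, with both strands searched.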

Additional observations from a re-analysis of the deposited data

How the results depend on the processing

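Of 169 alternative values for the 14 member probe sets, 153 kept their sign and their side of the threshold. The median over members was 0.0258 with median centring and -0.279 to -0.046 with each array left out in turn. The count of member probe sets at an unadjusted p under 0.05, whose alternatives were chosen after seeing the data, was 2 with median centring, 3 without the intensity trend and 1 to 9 with each array left out. With median centring *Adipoq* was 0.0449, *Plin2* 0.0584, *Retn* 0.0258 and *Cebpa* 0.0373, since that setting moved the median of all probe sets from -0.02 to 0.07. The replicate block gave 0.0052 for *Adipoq* and 0.0074 for *Retn*, and *Fabp4* 1451263_a_at was -0.85 (adjusted p = 0.0023 in limma). With it the list genes *Nnat* (adjusted p = 0.017) and *Cebpd* (adjusted p = 0.0197) passed too. Same-numbered arrays were not shown to be pairs. Wild-type replicate 3 was alone in its block, so the block differences equal those of the fit without that array. In that fit *Fabp4* 1451263_a_at was also -0.85, with an adjusted p of 0.0734 in limma. Leaving out each array in turn gave ranges of -0.18 to 0.0922 for *Adipoq*, -0.28 to 0.15 for *Retn*, -0.55 to 0.80 for *Lep*, -0.37 to 0.0311 for *Plin4*, -0.38 to 0.0216 for *Fabp4* 1424155_at and -0.0191 to 0.19 for *Cd36* 1450884_at. The number of probe sets past an adjusted p of 0.05 over the whole array was 24, and became 10 without a filter, 0 without the trend (2631 at an unadjusted p under 0.05), 106 with the replicate block and 0 to 201 with each array left out, the 0 without wild-type replicate 2 or 3 (1581 and 2194 at an unadjusted p under 0.05) and the 201 without *Clock* mutant replicate 2. The filter at the 60th percentile left no value for *Lep*. The causes were not tested.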
